A study of Mus musculus with 2 samples.

Results

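The Myc, Max and Mxd network is a small set of basic helix-loop-helix leucine zipper transcription factors. Its members were taken from the deposited gene counts by symbol, and all 10 listed genes (Myc, Mycn, Mycl, Max, Mxd1, Mxd3, Mxd4, Mxi1, Mnt and Mlx) were found among the 45318 genes of the table. The counts come from MLL/AF9 leukaemia cells of C57Bl/6 mice, a model of acute myeloid leukaemia driven by a fusion oncogene. GFP-positive cells had been sorted from the marrow of leukaemic animals given vehicle or brequinar, an inhibitor of dihydroorotate dehydrogenase in de novo pyrimidine synthesis, and their poly(A) RNA was sequenced. Each treatment had 1 library, which leaves every difference below without replicates and without a p-value. Not given in the sources used here are dose, duration and how many animals were used. In such bulk samples, fewer cells of a type and less RNA per cell cannot be told apart.

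Max is the shared partner of the network. Myc, Mycn and Mycl bind DNA as pairs with Max at the E-box, a short palindromic motif, and activate genes of growth and division. The Mxd proteins, Mxi1 and Mnt pair with Max at the same motif and recruit Sin3 corepressors with histone deacetylases, and Mlx is a Max-like partner for Mnt, for some Mxd proteins and for the glucose-sensing factors Mlxip (MondoA) and Mlxipl (ChREBP). In blood cells, Myc is known for driving progenitor division, and Mxd1 for its rise as granulocytes mature.

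The E-box CACGTG, which reads the same on both strands, is a sequence that Max and its partners bind as pairs. The promoters of the members themselves were therefore searched for it. RefSeq windows (GRCm38.p6) of 300 bases, from 250 before to 50 after an annotated start, were matched by symbol for 9 members, and none for Myc. Of their 11 windows 10 end in bases found near the start of a GENCODE transcript of the gene, and that of Max does not. The motif was present for 4 of these 9 genes (44.4%), against 12.2% of 8690 measured genes with a window and 8.09% of 27025 genes in the whole table. These 4 stretches of 30 bases are shown 5′ to 3′ on the gene's strand, with the E-box in capitals.
Max: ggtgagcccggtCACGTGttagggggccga
Mlx: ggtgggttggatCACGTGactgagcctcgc
Mnt: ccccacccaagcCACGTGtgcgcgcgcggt
Mxd4: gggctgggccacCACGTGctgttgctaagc
They lie at chr12:76962234-76962263 (minus strand) for Max, chr11:101087238-101087267 (plus) for Mlx, chr11:74830789-74830818 (plus) for Mnt and chr5:34187912-34187941 (minus) for Mxd4. The E-box began 3 bases before the RefSeq start of Max, 40 before that of Mlx, 123 before that of Mnt and 219 before that of Mxd4. A match is a description of these letters and not a binding site. The 4 genes that carry it did not share a direction: Max and Mlx had log2 ratios (brequinar over vehicle) of 0.35 and 0.39, and Mnt and Mxd4 of -0.50 and -0.73.

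Levels are given as CPM, counts scaled to library size after edgeR's TMM correction, and a gene was measured when its mean over both libraries was at least 1 CPM. A measured gene was called higher or lower in the brequinar library at 2-fold or more. Of the 10 members 8 were measured, Mxd3 alone was called higher, and none was called lower. Over all 11504 measured genes 6.45% were called higher and 4.40% lower, so 1 member of 8 is near the background. For 8 of 8 measured members the 95% counting interval of the ratio did not include 1, but at this depth the same held for 76.9% of all measured genes. The median log2 ratio was 0.25 over the 8 measured members and 0.00 over all measured genes. Of the 8, 5 had log2 ratios above 0 and 3 below 0. The scatter of ratio against level places them among the other genes.

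**Figure D1:**
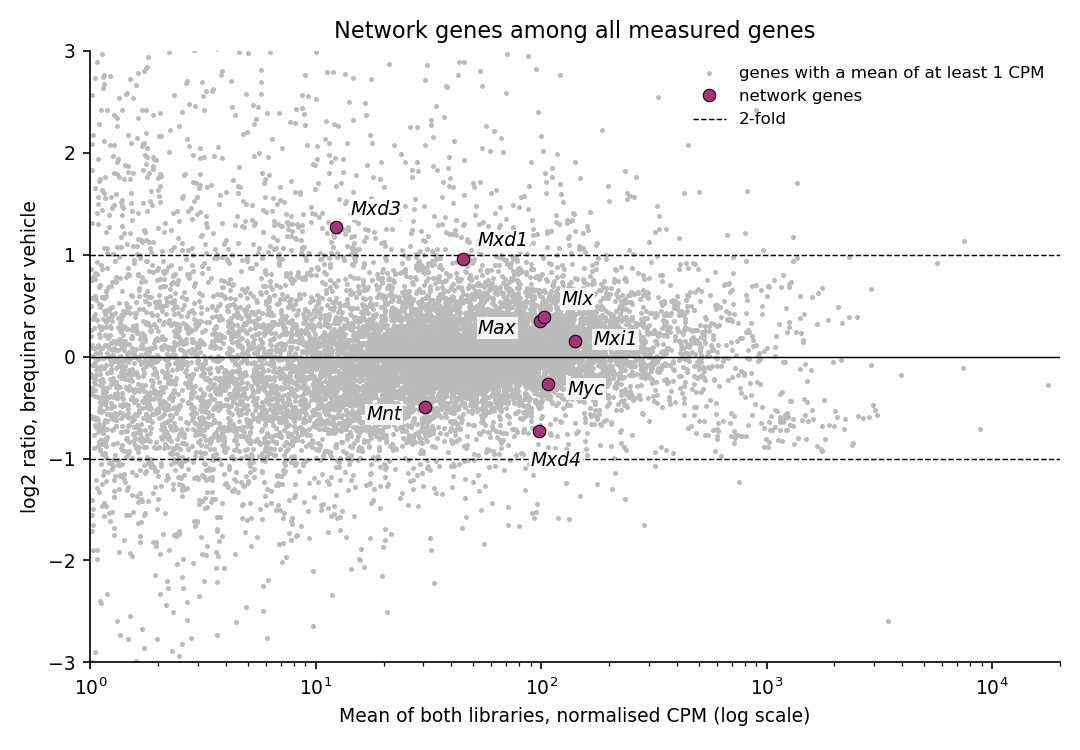
Log2 ratio (brequinar over vehicle) against the mean of both libraries in normalised CPM (log axis), with measured genes in grey, the 8 measured network genes in purple and 2-fold as dashed lines; genes beyond a log2 ratio of 3 in either direction are not drawn. Mxd3 (1.27) lies above the upper line, Mxd1 (0.96) just under it, and Mxd4 (-0.73) is the lowest of the 8.

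Myc (chromosome 15, 61985391 to 61990374, plus strand, GRCm38) was the Myc gene these cells expressed. It had 5822 counts in the vehicle and 4530 in the brequinar library, or 118 and 97.52 CPM. Its level was thus 1.21-fold lower (log2 ratio -0.27, interval of the ratio 0.797 to 0.862), which is well within 2-fold, and 26.8% of all measured genes had a lower ratio. Mycl (chromosome 4, 122995652 to 123002485, plus strand), a paralog known from lung cancer and dendritic cells, had 18 and 7 counts. These correspond to 0.364 and 0.151 CPM, and the interval of their ratio, 0.146 to 1.04, included 1. Mycn (chromosome 12, 12936093 to 12941914, minus strand), the paralog amplified in neuroblastoma, had 0 and 7 counts. A count of 0 allows up to 0.0606 CPM in the vehicle library (3 counts), and the brequinar library stood at 0.151 CPM, a level of very few reads at which the exact interval of the ratio began at 1.54. Neither Mycl nor Mycn was measured, so both stayed out of the counts of calls.

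Pvt1, a long noncoding RNA gene beside Myc, was measured at a low level. It had 29 and 105 counts (0.586 and 2.26 CPM) and was 3.86-fold higher (interval 2.54 to 6.04) in the brequinar library, while Myc had a log2 ratio of -0.27. Pvt1 is no member of the network, and the relation of its level to that of Myc was not tested.

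Max (chromosome 12, 76937269 to 76962201, minus strand), the obligate partner, had 4325 (vehicle) and 5165 (brequinar) counts. This was 87.4 and 111 CPM, a ratio of 1.27 (interval 1.22 to 1.32). Mlx (chromosome 11, 101087277 to 101092207, plus strand) had nearly the same ratio, 1.31 (interval 1.26 to 1.36), with 89.5 and 117 CPM. Both dimerisation hubs were therefore above 1 and within 2-fold, and 21.9% and 19.7% of measured genes had higher ratios. The exons of Mlx share 385 of 1999 bases with Psmc3ip on the opposite strand, and whether reads were counted by strand is not given in the sources used here. Psmc3ip itself stood at 23.6 and 16.5 CPM.

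The repressive partners of Max lay on both sides of 0. Mxd3 (chromosome 13, 55325168 to 55329823, minus strand), a Mxd gene known for its expression in dividing cells, had 357 and 809 counts. Its level was 7.21 CPM in the vehicle and 17.4 CPM in the brequinar library, 2.41-fold higher (interval 2.13 to 2.74). The whole interval lay beyond 2-fold, as it did on the higher side for 5.22% of measured genes, and 4.78% of measured genes had a higher ratio. Mxd3 shares 105 of 2369 exon bases with Prelid1 on the opposite strand, which stood at 178 and 187 CPM.

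Mxd1 (chromosome 6, 86647042 to 86669161, minus strand), the founding Mxd gene, had 1508 (vehicle) and 2755 (brequinar) counts. At 30.5 and 59.3 CPM it was 1.95-fold higher (interval 1.83 to 2.07), just under the 2-fold rule, and 6.84% of measured genes had a higher ratio. Genes of late neutrophil granules were higher in the same library. All 10 listed (such as Ltf, Camp and S100a8) were called higher, beside 6.45% of all measured genes. Together these 10 stood at 1453 and 24055 CPM, and their part in the Mxd1 and Mxd3 values was not tested.

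Mxd4 (chromosome 5, 34173883 to 34187720, minus strand) lay on the other side. It had 6026 and 3415 counts, or 122 and 73.5 CPM, and was 1.66-fold lower (interval 1.59 to 1.73) in the brequinar library. Its exons share 514 of 8483 bases with the antisense gene Gm42846, for which no count was used here. Mnt (chromosome 11, 74830920 to 74845725, plus strand), a broadly expressed antagonist of Myc, had 1764 and 1172 counts, or 35.7 and 25.2 CPM, and was 1.41-fold lower (interval 1.31 to 1.52). Neither reached 2-fold, and 8.67% and 15.6% of measured genes had lower ratios.

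Mxi1 (chromosome 19, 53310518 to 53375810, plus strand) is also called Mxd2. Per kilobase of merged exons it had the highest level of the repressive partners in both libraries (19.5 and 21.7 CPM per kilobase). How far it lay above Mxd4 in the vehicle library depended on the length used, as given below. Mxi1 had 6597 and 6893 counts, or 133 and 148 CPM, and its ratio of 1.11 (interval 1.08 to 1.15) was the closest to 1 of all 8 measured members. It shares 194 of 6823 exon bases with Gm10197 on the opposite strand, which had 1 and 0 counts. RefSeq gives Mxi1 3 promoter windows, and counts per gene cannot separate their transcripts. Erythroid markers are of interest because red cell precursors are known to express Mxi1. In the brequinar library 9 of 9 measured markers were called higher, beside 6.45% of all measured genes. The 10 listed markers summed to 76.7 and 258 CPM. Their part in the Mxi1 level was not tested.

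The promoters of Mxd1 and Mxd3, the members with the highest ratios, held no E-box in these windows. They are shown because both are rich in the GC box GGGCGG, the motif of Sp-family factors, searched on both strands (reverse complement CCGCCC), with copies that may share bases. This motif was chosen after the values and the sequences were seen. The part of each window before the GENCODE start, which lies upstream of the RefSeq start in both genes, is given 5′ to 3′ on the gene's strand with GC boxes in capitals.
Mxd1: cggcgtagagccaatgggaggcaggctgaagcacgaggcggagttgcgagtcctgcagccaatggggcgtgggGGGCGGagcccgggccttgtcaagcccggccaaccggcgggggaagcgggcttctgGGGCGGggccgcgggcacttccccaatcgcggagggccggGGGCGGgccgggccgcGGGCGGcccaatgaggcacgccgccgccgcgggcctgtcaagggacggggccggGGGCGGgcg
Mxd3: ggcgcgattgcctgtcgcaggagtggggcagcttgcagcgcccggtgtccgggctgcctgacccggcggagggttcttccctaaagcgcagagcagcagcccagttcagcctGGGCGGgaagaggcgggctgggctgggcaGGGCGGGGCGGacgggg
The Mxd1 stretch is chr6:86669162-86669409 and the Mxd3 stretch chr13:55329824-55329981, both on the minus strand. These stretches hold 5 and 3 GC boxes. In the full windows of 300 bases Mxd1 had 6 GC boxes and Mxd3 had 8. At least 3 GC boxes were found in 21.05% of the windows of measured genes and in 10.7% of all windows. Of the 11 windows of members, 5 held at least 3. Mnt, whose log2 ratio was below 0, had 4 in its window, and Mxi1, the member with the ratio closest to 1, had windows with 4. The motif thus did not go with 1 direction.

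Levels of different genes were compared only per length, as normalised CPM per kilobase of merged exons. In the vehicle library Mlx (44.8) and Myc (43.3) were at the top, with counting intervals that overlapped (43.5 to 46.1 and 42.2 to 44.4). Below them came Max (24.3), Mxi1 (19.5), Mxd4 (14.4), Mnt (7.70), Mxd1 (4.31) and Mxd3 (3.05), each beyond the intervals of its neighbours. In the brequinar library the order was Mlx (58.6), Myc (35.9), Max (30.9), Mxi1 (21.7), Mxd4 (8.67), Mxd1 (8.39), Mxd3 (7.35) and Mnt (5.45). Mxd4 (8.38 to 8.96) and Mxd1 (8.08 to 8.71) overlapped there, whereas their intervals were far apart in the vehicle library. Mycn and Mycl lay under 0.1 CPM per kilobase in both libraries. The top of the order depends on the length used: with the longest annotated transcript in place of merged exons, Myc (50.3) came above Mlx (45.6) in the vehicle library, and Max (57.3) above Myc (41.7) in the brequinar library. With that length Mxi1 (26.5) and Mxd4 (26.3) were nearly equal in the vehicle library.

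**Figure D2:**
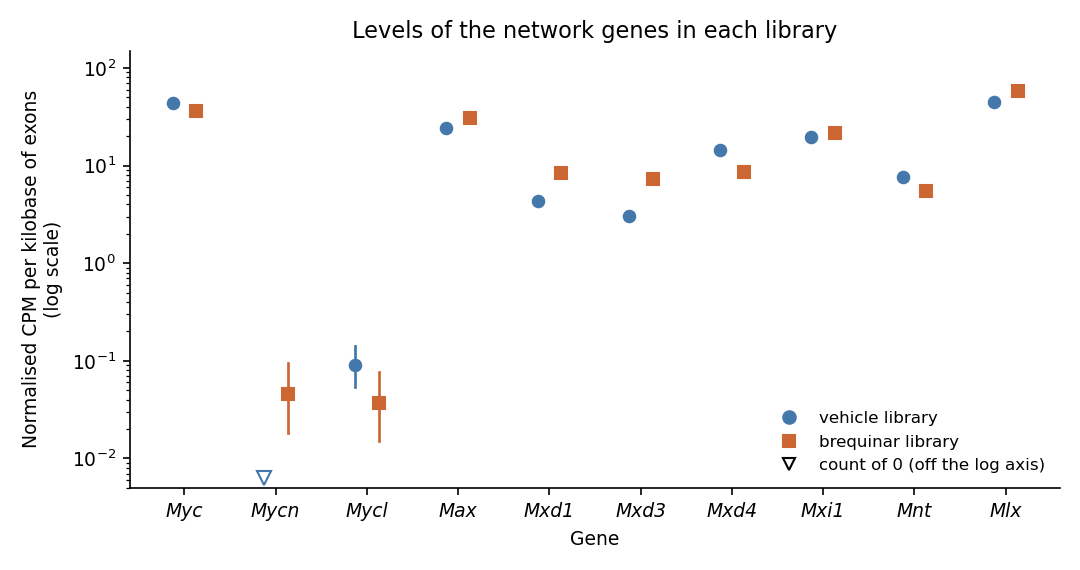
Level of each network gene as normalised CPM per kilobase of merged exons (log axis) in the vehicle library (blue circles) and the brequinar library (orange squares), with 95% counting intervals as vertical lines where wider than the symbol; the open triangle marks the count of 0 of Mycn. Mxd1 and Mxd3 are higher and Mxd4, Mnt and Myc lower in the brequinar library, while Mycn and Mycl lie far below the other 8 genes.

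Summed per length, the transcripts of Max's activating and repressive partners were compared within each library. The Myc family summed to 43.4 ± 0.568 CPM per kilobase (vehicle; the error is that of counting) and 35.98 ± 0.534 (brequinar), nearly all of it Myc. The 5 repressive partners summed to 49.0 ± 0.405 and 51.6 ± 0.456. This sum and the values drawn from it leave out Mga, a Max-binding repressor outside the list (5.60 and 4.64 CPM per kilobase). Max stood at 24.3 ± 0.369 and 30.9 ± 0.430. The repressive partners thus were 1.13 ± 0.0175 times the Myc family sum with vehicle and 1.43 ± 0.0248 times with brequinar. Max was 0.560 ± 0.0112 and 0.859 ± 0.0175 times the Myc family sum. With the longest transcript as length these values were 0.893 and 1.37, so whether Max lay below or above the Myc family with brequinar depended on the length, and the ratio of the brequinar to the vehicle value was 1.53 with either length.

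The total of the repressive partners differed little between the libraries (49.0 and 51.6), and its makeup differed more. Mxd1 and Mxd3 together held 15.02% of it with vehicle and 30.5% with brequinar. Mxd4 and Mnt together held 45.1% and 27.4%, and Mxi1 held 39.9% and 42.1%. Both pairs, Mxd1 with Mxd3 and Mxd4 with Mnt, were grouped by direction after their values were seen. Opposite differences in the shares of these pairs thus follow from the grouping. The shares are of RNA in 1 library each, and do not give amounts of protein or of pairs with Max.

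**Figure D3:**
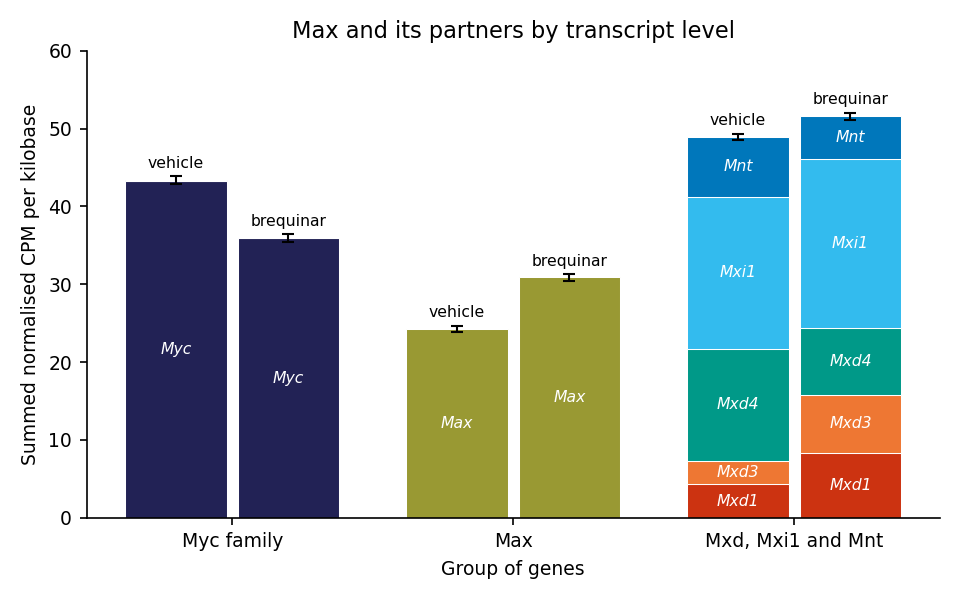
Summed normalised CPM per kilobase of merged exons for the Myc family, for Max and for the repressive partners in the vehicle (left bar) and brequinar (right bar) libraries, divided by gene, with error bars of 1 standard error from counting alone. The Myc bar is lower (43.4 and 35.98) and the Max bar higher (24.3 and 30.9) in the brequinar library, and the repressive partners differ more in makeup than in total (49.0 and 51.6).

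The network genes outside the list were Mga, a large Max-binding repressor, and the Mlx partners Mlxip and Mlxipl, with the Myc-related Bmyc and Mycs. Mga stood at 85.9 and 71.2 CPM and Mlxip at 47.4 and 38.3 CPM, both within 2-fold. Mlxipl (13 and 5 counts), Bmyc (5 and 2) and Mycs (0 and 0) were not measured. Of the targets of MondoA and Mlx, Txnip, an inhibitor of glucose uptake, stood at 139 and 153 CPM and its relative Arrdc4 at 8.65 and 6.91 CPM. Pklr, a liver and red cell pyruvate kinase gene that ChREBP controls, was not measured, with 3 and 37 counts (ratio 13.1, interval 4.16 to 66.6).

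The machinery around the network gave no call. In all, 10.8% of measured genes were called in either direction, and nothing is drawn from a count of 0 in lists this small. None of 15 genes of the Sin3 corepressor complex was called, with a median log2 ratio of 0.05. The scaffold genes Sin3a and Sin3b had log2 ratios of 0.00 and 0.08. The largest absolute ratios were those of Ing2 (22.6 and 18.9 CPM), Arid4b (24.4 and 20.6 CPM), Arid4a (44.9 and 53.0 CPM) and Sap130 (52.1 and 44.5 CPM). None of 17 Myc cofactors was called either (median -0.04). Among them Smarcb1 (68.4 and 47.1 CPM), a subunit of the SWI/SNF remodeller, Trrap (108 and 80.9 CPM), the scaffold of histone acetyltransferases that Myc recruits, and Ruvbl1 (96.4 and 74.1 CPM) and Ep400 (190 and 152 CPM), of the Tip60 complex, had the largest absolute ratios.

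Genes that act on the Myc protein gave no call among 14 (background 10.8%), with a median of -0.05. At 1.5-fold 1 was higher and 1 lower, beside 12.7% of all measured genes in each direction. Aurka, a mitotic kinase that also stabilises Mycn protein, stood at 90.1 and 164 CPM, and Usp28, a deubiquitinase of Myc, at 14.9 and 9.08 CPM. Ppp2r5a, a subunit of the phosphatase that marks Myc for decay, stood at 239 and 355 CPM, and Cip2a, an inhibitor of that phosphatase, at 57.5 and 82.6 CPM. These values are of transcripts, and Myc protein was not measured. None of 9 other E-box factors was called (median -0.12), and at 1.5-fold 1 was higher and 1 lower (background 12.7% in each direction). Tfe3 (20.9 and 38.2 CPM) and Tfeb (13.3 and 19.7 CPM), regulators of lysosome genes, lay above 0, and the sterol regulators Srebf2 (212 and 140 CPM) and Srebf1 (92.3 and 63.1 CPM) below it.

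Of 43 genes that Myc is known to induce, 41 were measured, 2 were called higher and none lower, beside 6.45% and 4.40% of all measured genes. Their median log2 ratio was -0.20, and 32 of the 41 (78.0%) lay below 0, against 49.9% of all measured genes. The 2 called genes were E2f2, an activator of S phase genes (42.2 and 117 CPM, 2.77-fold, interval 2.63 to 2.91), and Ccnd2, cyclin D2 (5.80 and 15.4 CPM, 2.66-fold, interval 2.32 to 3.06). On the other side Apex1, a DNA repair endonuclease, stood at 137 and 71.3 CPM (1.92-fold lower, interval 1.84 to 2.00), and the glutamine transporter gene Slc1a5 at 127 and 77.8 CPM. Apex1 passed 2-fold (1 called lower) with scaling by total counts alone, and also by totals without the 50 most abundant genes. Odc1, which encodes ornithine decarboxylase, stood at 288 and 267 CPM, and Ncl, which encodes nucleolin, at 1638 and 1389 CPM. Cdk4, the kinase of D-type cyclins, was 1.47-fold lower (332 and 226 CPM). The E-box was found in a promoter window of 11 of the 35 genes of this list with a window (31.4%), against the 12.2% of measured genes given above. For genes that Myc is known to repress it was found for 0 of the 7 with a window, a number too small to draw on.

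Of 11 genes that Myc is known to repress, 7 were measured, with 2 called higher, 2 called lower (6.45% and 4.40% over all genes) and a median log2 ratio of 0.96. With a filter at 5 CPM 1 was called higher and 1 lower, beside 457 and 230 of all genes that passed that filter. The share over all genes was not computed for this setting, and nothing is drawn from it. At 1.5-fold 5 were higher and 2 lower, beside 12.7% of all measured genes in each direction. Without the filter on low genes the median was 0.45. Cdkn1a, the gene of the cyclin kinase inhibitor p21 and also a p53 target, stood at 25.5 and 330 CPM (12.9-fold, interval 12.2 to 13.7). Cdkn1c, the inhibitor p57, stood at 2.18 and 7.02 CPM (3.22-fold, interval 2.58 to 4.04). The 2 lower genes were Pdgfrb, a growth factor receptor (343 and 116 counts, 2.78-fold, interval 2.24 to 3.46), and Cebpa, a factor of granulocyte fate (75.4 and 30.3 CPM, 2.49-fold, interval 2.34 to 2.65). The list thus had members beyond 2-fold on both sides, as the strip plot of lists shows.

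**Figure D4:**
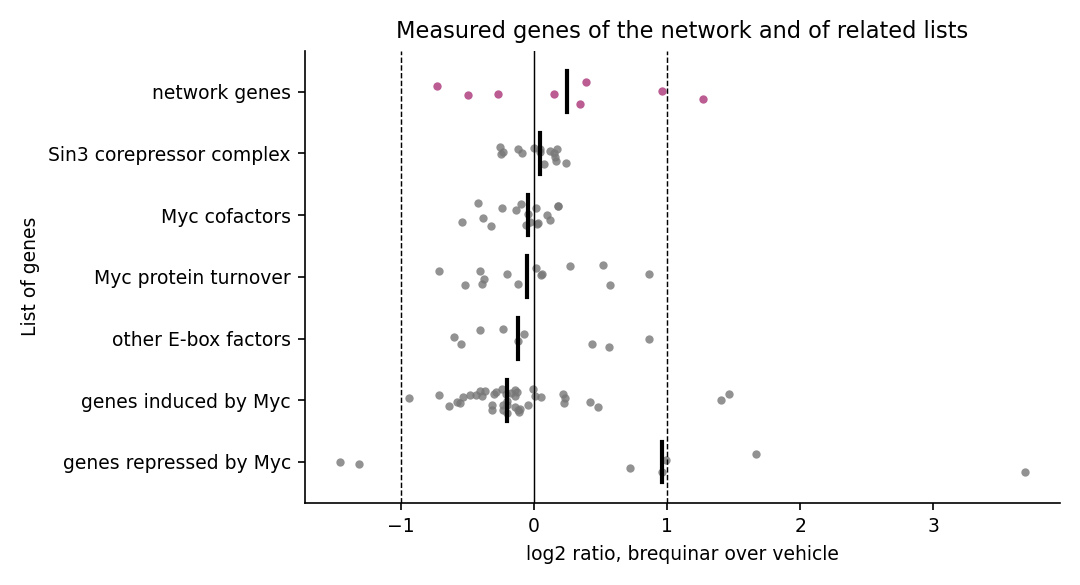
Log2 ratio (brequinar over vehicle) of each measured gene (points) of the network and of 6 related lists, with list medians as thick bars and 2-fold as dashed lines. The 41 measured genes induced by Myc centre on -0.20, the 15 Sin3 genes and 17 Myc cofactors lie within 2-fold, and the 7 measured genes repressed by Myc spread from -1.46 to 3.69.

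Gene counts summed to 47935476 and 47950714, and each of the 8 measured members had at least 357 counts in each library. The markers of the labelled cells were present, with Itgam called higher, Mpo, Kit and Cd34 lower, and Hoxa9 and Meis1 within 2-fold. Besides the granule and erythroid genes, 6 of 8 macrophage markers were called higher, beside 6.45% of all measured genes. These 6 summed to 5.44 and 48.5 CPM and were 6.33-fold to 15.4-fold higher each, while all 8 summed to 596 and 770 CPM, most of it from Adgre1 and Vcam1. Among markers of megakaryocytes 2 of 2 measured genes were called higher. Of those of B cells 1 of 3 measured was called lower (background 4.40%), and no T cell marker was measured. Markers of B cells summed to 31.5 and 16.8 CPM, of T cells to 1.98 and 2.88 CPM and of megakaryocytes to 2.79 and 9.15 CPM. Of these markers Ppbp alone was at 0, in the vehicle library.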

How the data were processed

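RNA of 2 libraries, 1 per treatment, was poly(A)-selected and sequenced as paired ends of 101 bases with strand kept, per the labels' protocols. The deposited values are raw whole-number counts per Ensembl gene. Per the submitters' processing notes, STAR 2.4.2a, Picard 1.99 and 2.2.4 and the build mm10 were used. Which program counted the reads, by which annotation and with what strand setting is not stated there or in the labels. The 4 lines that name no gene held 21.6% (vehicle) and 20.2% (brequinar) of reads and were left out.

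Symbols, positions and lengths came from GENCODE mouse release 21 (GRCm38) by identifier (44671 of 45318 matched). TMM factors were computed with edgeR 4.0.16 in R 4.3.3. Log2 ratios used a prior count of 2; fold changes with exact (Clopper-Pearson) 95% intervals used raw counts. Intervals cover counting error only, and without molecular identifiers amplified reads can stem from 1 molecule. Procedures were tested on simulated counts that held counting error only. Such counts cannot show how the calls would hold between animals. Promoter sequences are from RefSeq (GRCm38.p6); Python 3.11.15 was used. The text names all 10 members, up to 4 measured genes of each other list by absolute log2 ratio, and Pvt1, Odc1, Cdk4, Ncl, Txnip, Sin3a and Sin3b. Genes named outside this rule (Pklr, Mlxipl, Bmyc, Mycs, genes that overlap members, and markers) were chosen after their values were seen. No gene was sought for a like pattern, since 2 libraries give 1 ratio per gene. Protein comparisons that had been planned were not made. Members and lists were chosen with earlier results of these data known.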

Additional observations from a re-analysis of the deposited data

How the results depend on the processing

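With 1 library per treatment, neither the spread between animals nor leaving out a replicate could be examined. No paired analysis was possible because each group holds 1 library. Under 6 alternatives (total counts, DESeq2 1.42.0 size factors, upper quartile, totals without the 50 most abundant genes, and prior counts of 0.5 and 5) no measured member changed the sign of its log2 ratio, and Mxd3 was the only member called. Mxd3 ranged from 1.18 to 1.27, Mxd1 from 0.87 to 0.96, Mxi1 from 0.06 to 0.15 and Myc from -0.36 to -0.27. At a 1.5-fold threshold 2 members were higher and 1 lower, against backgrounds of 12.7% and 12.7%. At 2-fold with no filter on low genes there were 2 higher and 1 lower. The calls added there were Mycn (0 and 7 counts) and Mycl (18 and 7 counts), and the share over all genes was not computed for this setting. With the longest transcript as length, the repressive partners amounted to 1.41 of the Myc family in the vehicle and 1.76 in the brequinar library, and 2 members changed place in the order of each library. Among all genes that passed the filter of 1 CPM, those called higher and lower numbered 742 and 506. They were 457 and 230 with a filter at 5 CPM, 2470 and 2074 with no filter, 1456 and 1463 at 1.5-fold, and 600 and 288 when the whole interval had to lie beyond 2-fold. Depth limits Mycn and Mycl alone among the members.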
